A study of Mus musculus with 16 samples.

Results

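Accessible regions were followed at the loci of 7 transcription factor genes of the B lymphoid lineage, Ebf1, Pax5, Tcf3, Foxo1, Bach2, Ikzf1 and Ikzf3. The genes were chosen by name, with earlier results of these data known. A region belonged to a locus when it lay within 100 kb of the 5′ end of the gene or inside the gene body. The rule gave 146 regions among the 90549 regions of the whole data set, for 7 of 21755 protein-coding genes. The measurement was ATAC-Seq, in which a transposase cuts open chromatin, in hematopoietic progenitors of mouse fetal liver, held in culture by an estrogen-dependent HoxB8 fusion in medium with β-estradiol.

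The 16 libraries fell into 4 groups of 4. The -77 enhancer of Gata2 was present in hi-77+/+ cells and deleted from both alleles in hi-77-/- cells. hi-77+/+ cells were infected with empty retrovirus (hi-77+/+ empty). hi-77-/- cells received empty retrovirus (hi-77-/- empty), retrovirus for GATA2 (hi-77-/- GATA2), or retrovirus for 9aa-Ins, a GATA2 form with 9 amino acids inserted between its zinc fingers (hi-77-/- 9aa-Ins). All cells, controls included, were infected, kept in culture for 3 d and sorted for the GFP that the vector carries. The labels name no separate line within a genotype, so genotype and cell line cannot be told apart, and GATA2 and 9aa-Ins came from a viral promoter rather than from Gata2 itself. Per the study's methods the libraries of the hi-77-/- groups are biological replicates. Whether they came from separate cultures is not stated, so p-values measure the spread between libraries.

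Commitment to the B lineage is built up by a small network of factors. Tcf3, an E protein, and Foxo1, a forkhead factor, act early and cooperate with Ebf1, which specifies the lineage. Ebf1 in turn acts on Pax5, which commits cells to it. Ikzf1 (Ikaros) and Ikzf3 (Aiolos) are related zinc finger factors of early and later lymphoid cells, and Bach2 is a repressor that holds back myeloid and plasma cell genes.

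The deposited lists held 50195 to 112267 peaks per library, and the number of reads behind them is unknown, so no counting interval was given. Lengths were 76447 to 112267 in hi-77+/+ empty, 64258 to 74703 in hi-77-/- empty, 50195 to 78185 in GATA2 and 70547 to 108020 in 9aa-Ins libraries. Counts over the complete lists are therefore not like for like between groups. GATA2 replicate 1 had 49852 peaks on the chromosomes used, so the 49000 taken were nearly its whole list. The 49000 most significant peaks of each library were compared. Transcript starts of 9 or 10 of 10 hematopoietic progenitor markers had a peak within 1 kb in every library, against 0 of 6 hepatocyte, 1 of 6 T cell and 2 to 3 of 6 stromal and endothelial markers. Of 8 markers of committed B cells, 1 to 3 were open per library, and Ms4a1, Vpreb1, Cd22 and Blk were open in none of the 16. Open committed B cell markers numbered 1 to 3 in hi-77+/+ empty, 2 to 3 in hi-77-/- empty, 1 in GATA2 and 2 to 3 in 9aa-Ins libraries. The part of any change in cell mixture in the results below was not tested. None of 120 pairs of libraries held identical lists (0 pairs).

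The sequences of 7 regions are shown because the results for Pax5, Ebf1, Ikzf3 and Bach2 turn on them. Each is a 200 bp window around the median peak summit on the + strand of GRCm38.p6 (mm10) from RefSeq, named by the distance of the region from the 5′ end of its gene, with + for downstream. Capitals mark the motif letters found by search on both strands. The GATA motif was searched as GATA with A or T before it and A or G after it. The EBF motif, a palindrome, was searched as TCCC and, 2 bases of any kind later, GGGA. For ETS factors the letters searched were GGAAGT. The motifs overlapped in none of the windows printed.
Pax5 +4.4 kb, chr4:44706046-44706245: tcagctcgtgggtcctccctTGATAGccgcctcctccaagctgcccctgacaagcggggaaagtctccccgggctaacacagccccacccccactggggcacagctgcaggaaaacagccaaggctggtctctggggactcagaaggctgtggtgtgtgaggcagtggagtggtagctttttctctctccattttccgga
Pax5 +5.2 kb, chr4:44705334-44705533: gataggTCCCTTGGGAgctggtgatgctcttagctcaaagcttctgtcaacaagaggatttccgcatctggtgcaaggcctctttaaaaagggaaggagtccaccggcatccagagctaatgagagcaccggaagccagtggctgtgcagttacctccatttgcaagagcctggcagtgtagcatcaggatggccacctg
Ebf1 +264.3 kb, chr11:44881388-44881587: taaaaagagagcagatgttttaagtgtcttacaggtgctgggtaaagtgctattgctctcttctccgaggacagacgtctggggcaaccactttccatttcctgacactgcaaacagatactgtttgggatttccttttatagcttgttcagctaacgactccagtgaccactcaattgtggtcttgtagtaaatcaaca
Ebf1 +275.9 kb, chr11:44893004-44893203: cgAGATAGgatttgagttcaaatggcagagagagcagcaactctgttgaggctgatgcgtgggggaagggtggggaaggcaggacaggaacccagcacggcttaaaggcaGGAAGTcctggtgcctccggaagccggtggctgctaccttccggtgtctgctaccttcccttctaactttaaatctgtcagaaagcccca
Ikzf3 +64.6 kb, chr11:98481365-98481564: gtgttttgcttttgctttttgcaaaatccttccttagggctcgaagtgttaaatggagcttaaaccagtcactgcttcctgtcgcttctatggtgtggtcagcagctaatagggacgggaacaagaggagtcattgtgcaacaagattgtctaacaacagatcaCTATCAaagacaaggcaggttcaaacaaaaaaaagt
Ikzf3 +76.1 kb, chr11:98469856-98470055: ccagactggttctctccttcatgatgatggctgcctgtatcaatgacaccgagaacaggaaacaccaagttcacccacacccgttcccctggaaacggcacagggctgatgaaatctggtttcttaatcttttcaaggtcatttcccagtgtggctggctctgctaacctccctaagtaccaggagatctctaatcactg
Bach2 +149.3 kb, chr4:32388039-32388238: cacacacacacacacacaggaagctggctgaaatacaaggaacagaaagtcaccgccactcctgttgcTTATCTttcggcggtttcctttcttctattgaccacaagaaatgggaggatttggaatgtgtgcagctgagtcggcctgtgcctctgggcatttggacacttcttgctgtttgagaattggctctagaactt

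GATA letters were present in the Pax5 +4.4 kb window at base 21, in the Ebf1 +275.9 kb window at base 3, in the Ikzf3 +64.6 kb window at base 165 and in the Bach2 +149.3 kb window at base 69. The EBF letters stood at base 7 of the Pax5 +5.2 kb window, and ETS letters at base 111 of the Ebf1 +275.9 kb window. The Ebf1 +264.3 kb and Ikzf3 +76.1 kb windows held none of the 3 motifs. Over windows of the same length, GATA letters occurred in 26.3% of all 90549 regions and in 37 of the 146 regions of the 7 loci. EBF letters occurred in 1.48% of all regions and 4 of the 146, and ETS letters in 27.9% and 41 of the 146. These matches describe letters and not bound sites.

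The readouts at each region were whether a library had a peak there and how that peak ranked. Rank 1 was the most significant peak of a library and rank 49000 the weakest taken. The rank was turned into a rank score that ran from 1 for the first peak to near 0 for the last, with 0 for no peak. A region was called opened when all 4 libraries of the first group and none of the second had a peak, and closed in the reverse case. Rank scores were tested with limma over the 57174 regions that had a peak in at least 4 libraries, with Benjamini-Hochberg adjustment and a threshold of 0.05. Of the 146 regions, 101 entered this test, 40 were open in every library and 25 in only 1. Another 45 regions had a peak in fewer than 4 libraries and were not tested. A region of a group-specific kind passes such a filter only through the group that has it, so the counts below describe the loci and support nothing by themselves. Where every peak of a region was in 1 group, its ranks are given below without a test. Bach2 +331.4 kb, Ikzf1 -5.7 kb and Ikzf3 -36.8, +64.6 and +76.1 kb also entered the test only through the group where they were highest. Their p-values would follow in part from the filter, so their differences are given below without p-values.

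With deletion of the enhancer, 5 of the 146 regions opened (3.42%, against 3.59% of all regions) and 0 closed (against 2.11%). By limma, rank scores rose at 20 of 101 tested regions (19.8%, against 21.3% of all tested) and fell at 13 (12.9%, against 19.1%). With GATA2 expression in hi-77-/- cells, 5 regions opened (3.42%, against 1.73%) and 1 closed (0.685%, against 2.23%), while rank scores rose at 16 (15.8%, against 8.52%) and fell at 10 (9.90%, against 12.4%). With 9aa-Ins, 3 opened (2.05%, against 1.35%) and 0 closed (against 0.171%), and rank scores rose at 4 (3.96%, against 5.37%) and fell at 1 (0.990%, against 1.88%). In 9aa-Ins against GATA2 cells, 3 were opened (2.05%, against 2.97%) and 4 closed (2.74%, against 1.47%), with higher rank scores at 11 (10.9%, against 16%) and lower ones at 19 (18.8%, against 8.23%). The shares for deletion were near the background in the opened and rising direction. Of the regions whose rank score rose with GATA2, 6 of 16 lay at Ikzf3, as did 6 of the 19 that were lower with 9aa-Ins than with GATA2. The 3 comparisons against hi-77-/- empty cells share those 4 libraries.

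**Figure D1:**
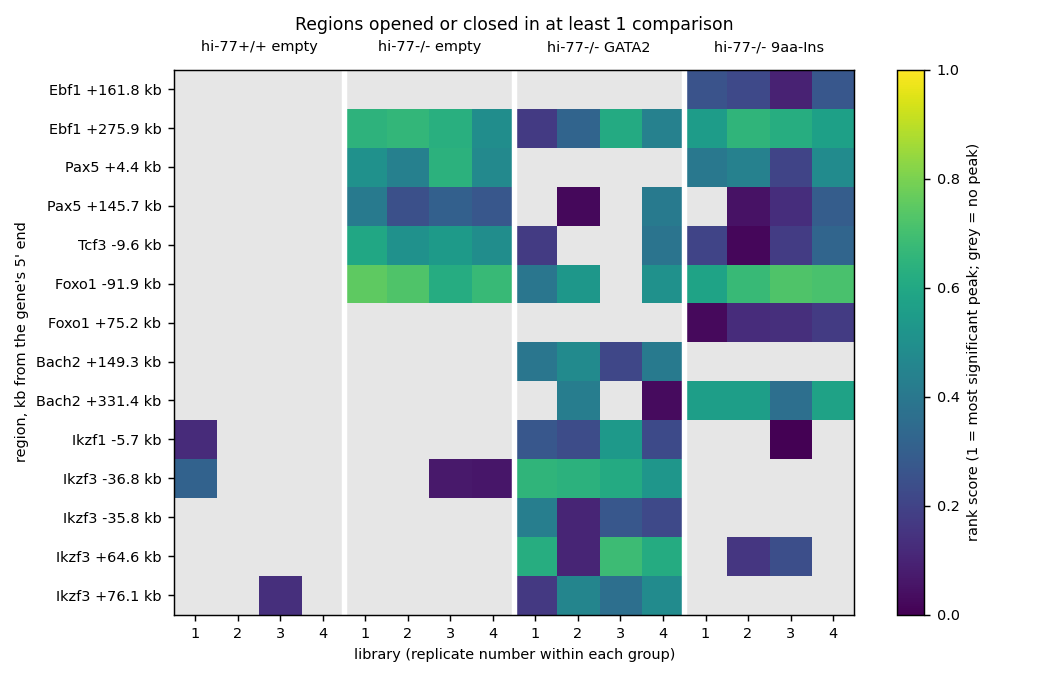
Rank score of the 14 regions opened or closed in at least 1 comparison (rows, named by gene and distance from its 5′ end in kb) in each of the 16 libraries (columns, by group and replicate number). Grey means no peak among the 49000 taken. The Ebf1 +275.9 kb, Pax5, Tcf3 and Foxo1 -91.9 kb rows hold peaks in all 4 hi-77-/- empty libraries and in no hi-77+/+ empty library, and the 4 Ikzf3 rows at the bottom hold peaks in all 4 GATA2 libraries.

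Each locus was also given a locus score, the sum of the rank scores of its regions, and tested with limma over 19553 protein-coding genes. With the deletion, 2 of the 7 loci scored higher (20.1% of all genes did) and 0 lower (33.9%). With GATA2, 2 scored higher (12.7%) and 2 lower (14.4%). With 9aa-Ins, 0 scored higher (6.33%) and 1 lower (1.38%). Between 9aa-Ins and GATA2 cells, 2 were higher with 9aa-Ins (18.8%) and 2 lower (10.1%). The median difference over the 7 loci was 0.114 with the deletion (-0.156 over all genes tested), 0.234 with GATA2 (0.0147), -0.0963 with 9aa-Ins (0.0461) and -0.196 between 9aa-Ins and GATA2 (0.0368). Pax5 and Ikzf3 made up the largest of these differences, in separate comparisons.

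**Figure D2:**
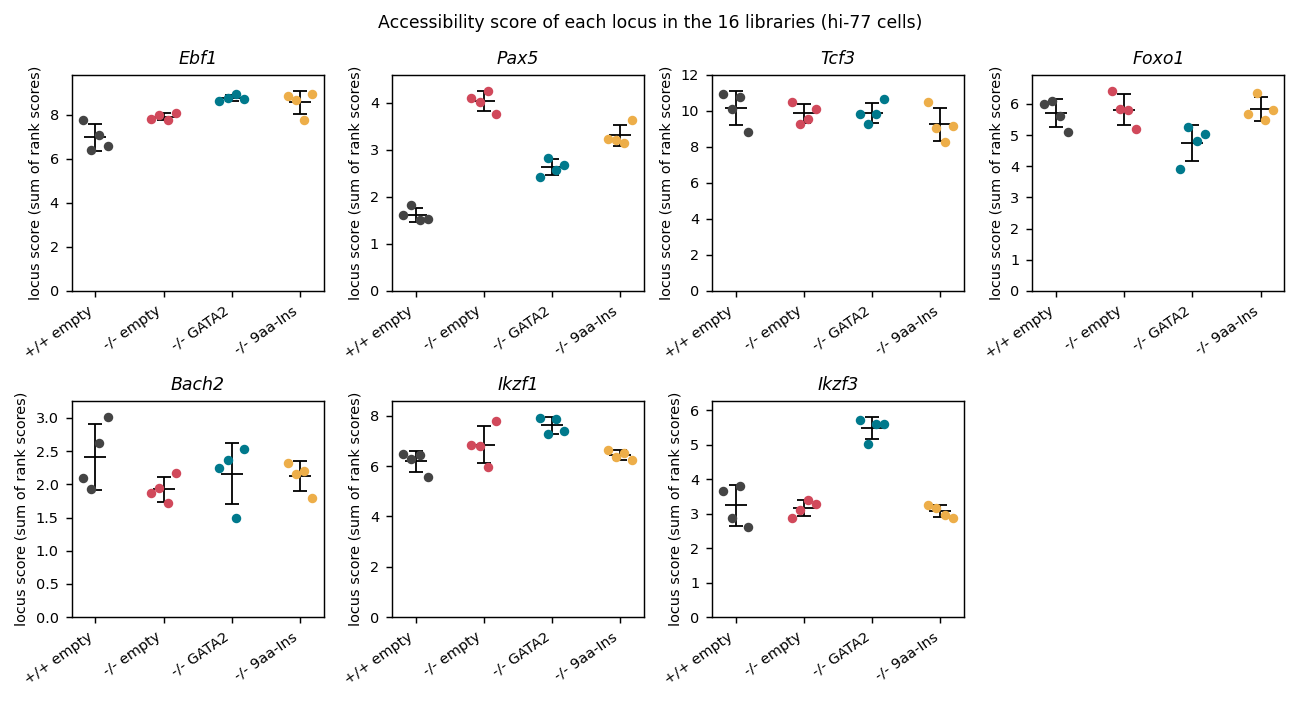
Locus score (sum of rank scores, no unit) of each of the 7 genes in the 16 libraries, by group. Points are libraries and bars are the mean ± SD of 4. Pax5 was lowest in hi-77+/+ empty cells at 1.61 and highest in hi-77-/- empty cells at 4.03, and Ikzf3 stood apart in GATA2 cells at 5.48.

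Pax5, which encodes the factor that commits cells to the B lineage (chr4:44524757-44710487, - strand), had the fewest regions of the 7 loci, 10, and gained accessibility with the deletion. Locus scores were 1.62, 1.82, 1.496 and 1.53 in the 4 hi-77+/+ empty libraries and 4.10, 4.01, 4.26 and 3.76 in the hi-77-/- empty libraries. GATA2 libraries scored 2.42, 2.83, 2.57 and 2.68, and 9aa-Ins libraries 3.22, 3.21, 3.14 and 3.64. The 4 groups did not overlap. The score rose by 2.42 ± 0.161 (SE) with the deletion (limma adjusted p = 2.37e-09) and fell by 1.41 ± 0.161 with GATA2 (adjusted p = 5.9e-06). The rise lay at the 97.2 percentile of all genes tested. With 9aa-Ins it fell by 0.728 (adjusted p = 0.00945), a call that was lost under 5 of 18 alternatives and changed sign in 2 of them. Scores were 0.678 higher with 9aa-Ins than with GATA2 (adjusted p = 0.00389), which was lost under 3 alternatives. The fall with GATA2 was lost when all deposited peaks were used (adjusted p = 0.217).

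No library had a peak within 1 kb of the Pax5 starts at or near its 5′ end. Accessibility was instead found at an alternative start 6.48 kb downstream (chr4, position 44704006). The region next to it, Pax5 +6.0 kb (chr4:44704036-44704917, annotated as intron), had a peak in all 16 libraries. It ranked 26148, 18884, 23612 and 14686 in hi-77+/+ empty libraries and 3432, 2170, 2594 and 1648 in hi-77-/- empty libraries. Median ranks with GATA2 and 9aa-Ins were 2641.5 and 2364.5, in the range of hi-77-/- empty cells. All 12 hi-77-/- libraries ranked this peak ahead of all 4 hi-77+/+ libraries. Its rank score rose by 0.375 ± 0.033 with the deletion (limma adjusted p = 1.65e-07).

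A neighboring intronic region differed between the GATA2 and 9aa-Ins groups. Pax5 +4.4 kb (chr4:44705782-44706298), whose window is printed above, had no peak in hi-77+/+ empty libraries, ranked 24222, 27632, 17526 and 25983 in hi-77-/- empty libraries, had no peak in GATA2 libraries, and ranked 29441, 27487, 39043 and 25346 in 9aa-Ins libraries. It was thus opened with the deletion, closed with GATA2 and open in 9aa-Ins cells. Rank score differences were 0.513 ± 0.066 with the deletion (adjusted p = 8.76e-06), -0.513 ± 0.066 with GATA2 (adjusted p = 1.36e-05) and 0.381 ± 0.066 between 9aa-Ins and GATA2 (adjusted p = 0.000268). In the complete deposited lists, a peak lay there in 1 of 4 hi-77+/+ empty and 1 of 4 GATA2 libraries. The rank score did not pass the test between 9aa-Ins and hi-77-/- empty cells.

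Pax5 +5.2 kb (chr4:44704981-44705586), the region with the EBF letters, had a peak in 1 hi-77+/+ empty library, at rank 35771. It ranked 13019, 12780, 20166 and 20500 in hi-77-/- empty libraries, 21478, 23257, 29454 and 32221 with GATA2, and 18849, 18873, 16634 and 15324 with 9aa-Ins. All 12 hi-77-/- libraries therefore had this peak, and the GATA2 ranks were the lowest placed of the 3 groups. The increase in rank score was 0.593 ± 0.077 with the deletion (adjusted p = 9.74e-06), and no other difference passed the test. Farther into the gene, Pax5 +145.7 kb (chr4:44564675-44564886, intron) was also opened with the deletion, at ranks 29021, 37012, 33965 and 35614. It had a peak in 2 of 4 GATA2 and 3 of 4 9aa-Ins libraries and, in the complete lists, in 1 of 4 hi-77+/+ empty libraries. Its rank score rose by 0.308 ± 0.083 with the deletion (adjusted p = 0.0064). Pax5 -70.3 kb, inside Zcchc7, rose with the deletion (0.295, limma adjusted p = 0.00201) and fell with GATA2 (-0.218, adjusted p = 0.0261). The fall held under 6 of 15 alternatives. Pax5 +37.7 kb (intron) had a peak in 3 hi-77-/- empty and 2 9aa-Ins libraries and in no other.

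**Figure D3:**
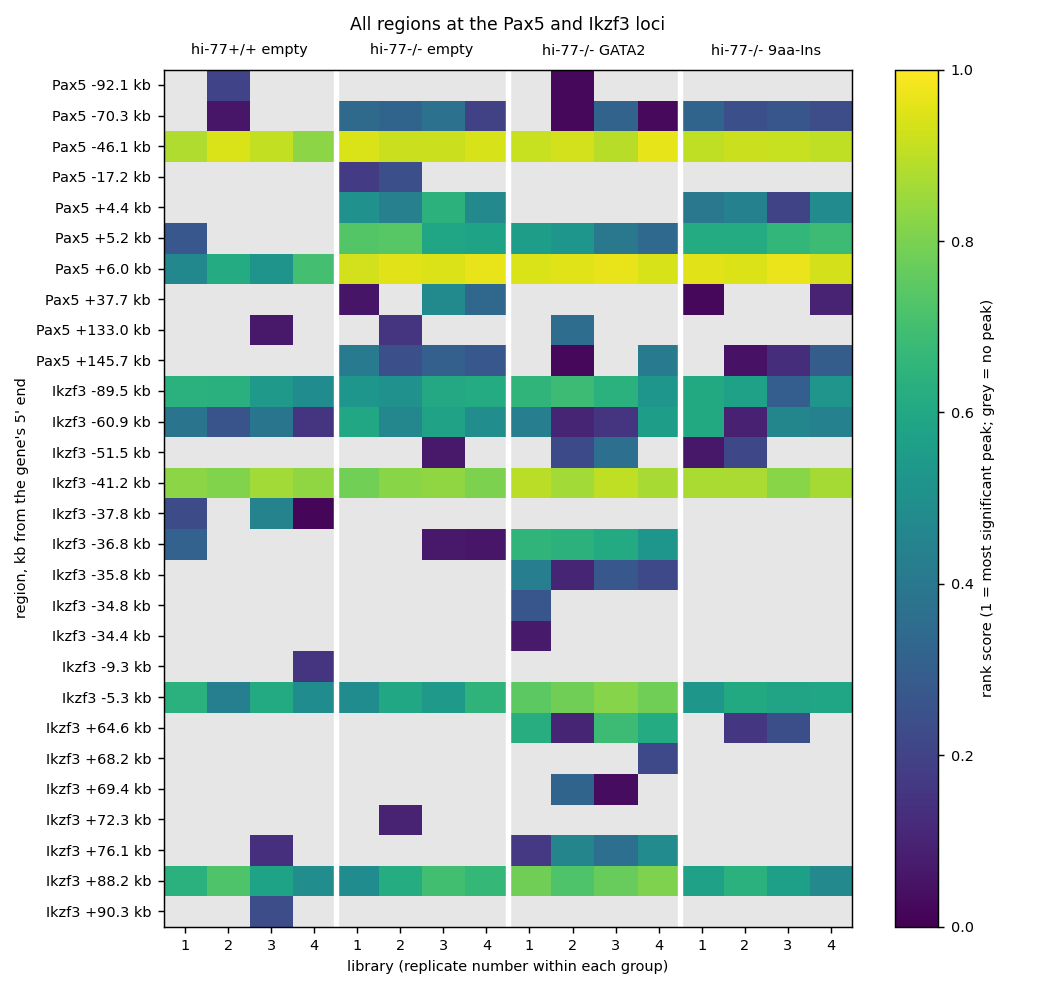
Rank score of every region at the Pax5 and Ikzf3 loci (rows, distance from the 5′ end in kb) in the 16 libraries (columns). Grey means no peak. Near Pax5 +4.4 to +6.0 kb the hi-77+/+ empty libraries are the weakest, and the GATA2 libraries lack the +4.4 kb peak. At Ikzf3 the GATA2 libraries hold peaks at -36.8, -35.8, +64.6 and +76.1 kb.

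Ebf1, which encodes the factor that specifies the B lineage (chr11:44617317-45008091, + strand), had 28 regions, 25 of them closest to its own start. Its promoter region, at -0.2 kb (chr11:44616447-44617820, overlapping a UTR exon), had a peak in all 16 libraries. Its median ranks were 2919, 3039.5, 3996.5 and 2674.5 in hi-77+/+ empty, hi-77-/- empty, GATA2 and 9aa-Ins cells. No promoter difference passed the test. Most of the differences described next lay in introns.

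Ebf1 +264.3 kb (chr11:44881069-44882094, intron) had a peak in every library and ranked 22707, 24632, 14016 and 22478 in hi-77+/+ empty against 1689, 1822, 2459 and 3695 in hi-77-/- empty libraries. It ranked 4621, 7747, 4106 and 6867 with GATA2 and 3146, 3145, 2795 and 3291 with 9aa-Ins. The hi-77+/+ libraries were again behind all 12 hi-77-/- libraries, and the GATA2 ranks fell behind all hi-77-/- empty ranks without passing the test. By limma the rank score rose by 0.378 ± 0.033 with the deletion (adjusted p = 1.48e-07). In hi-77-/- empty cells its median rank was 2140.5, beside 3039.5 for the Ebf1 promoter.

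Ebf1 +275.9 kb (chr11:44892836-44893649, intron) was opened with the deletion. It had no peak in hi-77+/+ empty libraries and ranked 17228, 16490, 18040 and 24978 in hi-77-/- empty libraries. It ranked 40726, 33122, 19067 and 27492 with GATA2 and 21931, 16985, 18524 and 21150 with 9aa-Ins. Its rank score rose by 0.609 ± 0.081 with the deletion (adjusted p = 1.39e-05). The complete lists held a peak there in 2 of 4 hi-77+/+ empty libraries.

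Other Ebf1 regions moved with the retroviral proteins. Ebf1 +280.2 kb (chr11:44897282-44897790, intron) had a peak in 1 hi-77-/- empty library, at rank 45828, and ranked 18488, 18889, 24870 and 18729 with GATA2 and 30173, 33447, 37120 and 29158 with 9aa-Ins. The increase in rank score was 0.571 ± 0.069 with GATA2 (adjusted p = 7.94e-06) and 0.321 ± 0.069 with 9aa-Ins (adjusted p = 0.00601), and differed by -0.250 between 9aa-Ins and GATA2 (adjusted p = 0.0122). Ebf1 +161.8 kb (chr11:44778977-44779281, intron) had a peak in the 9aa-Ins group alone, at ranks 36425, 38207, 44363 and 35612. It was called opened against both hi-77-/- empty and GATA2 cells. These were among the weaker peaks taken, and the complete lists held a peak there in 2 hi-77+/+ empty, 2 hi-77-/- empty and 1 GATA2 library. Ebf1 +7.5 kb (chr11:44624579-44625020, intron) rose with the deletion from a median rank of 32358 to 17035 (0.284 ± 0.056, adjusted p = 0.000562). Ebf1 +334.3 kb (chr11:44951324-44951958, intron) rose with GATA2 from a median rank of 30199 over the 3 hi-77-/- empty libraries with a peak to 10615.5 (0.456 ± 0.093, adjusted p = 0.0014). It fell with the deletion (-0.273, adjusted p = 0.0265), a call that held under 10 of 16 alternatives. Rank scores also fell with the deletion at Ebf1 -97.1 kb, inside Rnf145 (-0.124, limma adjusted p = 0.0167). The same was true at -5.9 kb (-0.128, adjusted p = 0.0211). By limma, 4 Ebf1 regions rose and 3 fell with the deletion, and 3 rose and 1 fell with GATA2. The 1 that fell with GATA2 was Ebf1 +391.0 kb, open in all 16 libraries (-0.150, adjusted p = 0.0246).

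The Ebf1 locus score was 6.96 ± 0.612 (SD, n = 4) in hi-77+/+ empty, 7.90 ± 0.147 in hi-77-/- empty, 8.75 ± 0.141 in GATA2 and 8.55 ± 0.534 in 9aa-Ins cells. The difference of 0.943 with the deletion passed limma (adjusted p = 0.0138), and so did that of 0.847 with GATA2 (adjusted p = 0.046). The first call held under 12 of 18 alternatives. Losses included leaving out hi-77+/+ empty replicate 2 (limma adjusted p = 0.0526) and asking that a peak cover 50% of the region (0.377). The exact permutation test gave p = 0.0571, and the difference changed sign with all deposited peaks (-1.36). The second call held under 5 of 18 alternatives and changed sign in 2. It was lost when any 1 of the 8 libraries was left out (limma adjusted p from 0.0587 to 0.104).

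**Figure D4:**
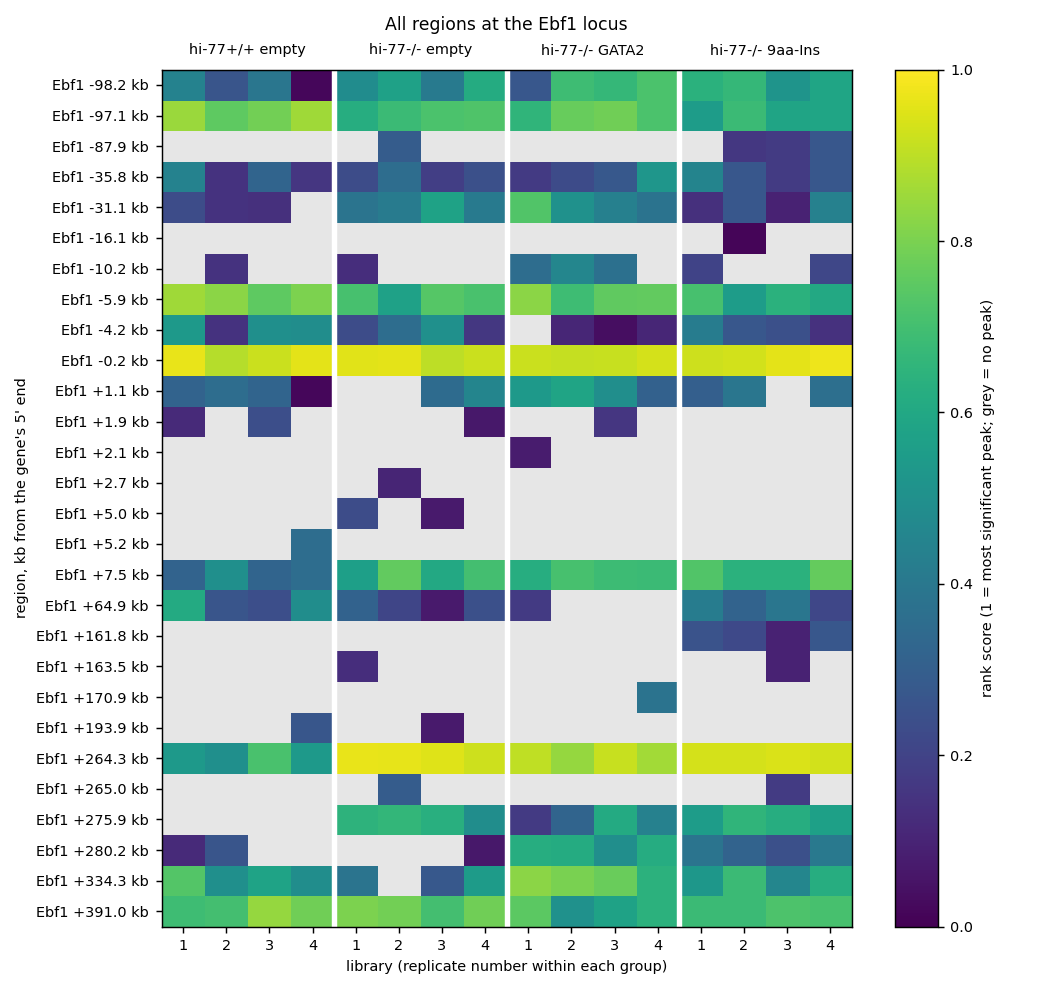
Rank score of the 28 regions at the Ebf1 locus (rows, distance from the 5′ end in kb) in the 16 libraries (columns). Grey means no peak. The promoter row at -0.2 kb is strong in every library, the +264.3 kb row is weakest in hi-77+/+ empty, and the +275.9 kb row is empty there.

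Ikzf3, which encodes Aiolos (chr11:98464902-98546031, - strand), had its highest locus scores in GATA2 libraries. Its locus score was 3.67, 2.87, 3.80 and 2.62 in hi-77+/+ empty libraries and 2.88, 3.10, 3.39 and 3.29 in hi-77-/- empty libraries. GATA2 libraries scored 5.71, 5.01, 5.61 and 5.61, and 9aa-Ins libraries 3.26, 3.16, 2.97 and 2.88. Every GATA2 library lay above all 12 others, and the other groups overlapped. The score rose by 2.32 ± 0.249 with GATA2 (limma adjusted p = 3.06e-06), at the 99.2 percentile of all genes tested. It differed by -2.42 ± 0.249 between 9aa-Ins and GATA2 (adjusted p = 2.33e-06), at the 0.522 percentile. Both calls were lost with all deposited peaks (adjusted p = 0.145 and 0.0851) and held under the other 17 alternatives. With 9aa-Ins the difference from hi-77-/- empty cells was -0.0963 ± 0.249 (adjusted p = 0.892).

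No library had a peak within 1 kb of the annotated Ikzf3 start, and none of the 18 regions at this locus (0 of 18) had Ikzf3 as the gene with the nearest start. The regions that moved lay on either side. Inside the gene, Ikzf3 +64.6 kb (chr11:98481379-98481584, intron) had no peak in either empty vector group and ranked 18558, 44007, 15435 and 18779 with GATA2. With 9aa-Ins it had a peak in 2 of 4 libraries, at ranks 41198 and 37238, and the complete lists held one in all 4 and in 1 library of each empty vector group. The rank score was 0.506 higher with GATA2 than in hi-77-/- empty cells and differed by -0.406 between 9aa-Ins and GATA2. Replicate 2 of GATA2 ranked this peak far behind the other 3. Ikzf3 +76.1 kb (chr11:98469847-98470098, intron) had no peak in hi-77-/- empty or 9aa-Ins libraries, a single peak in hi-77+/+ empty at rank 42370, and ranks of 40904, 26657, 31158 and 25299 with GATA2. It was called opened with GATA2 (a rank score difference of 0.367) and closed in 9aa-Ins against GATA2 cells. In the complete lists 2 of 4 9aa-Ins libraries had a peak there. The start nearest to both regions was that of Grb7.

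Upstream of Ikzf3, a pair of regions inside Ormdl3, a regulator of sphingolipid synthesis, changed with GATA2. Ikzf3 -35.8 kb (chr11:98581757-98581962) was opened with GATA2, at ranks 28042, 44008, 35700 and 38227, and had no peak in the other 12 libraries, 2 of which, in hi-77+/+ empty, had a weaker one in the complete lists. Ikzf3 -36.8 kb (chr11:98582535-98583066) ranked 17002, 17551, 19131 and 23254 with GATA2, and had a peak in 2 hi-77-/- empty libraries, at ranks 45699 and 46047, in 1 hi-77+/+ empty library, at rank 33615, and in no 9aa-Ins library (3 of 4 in the complete lists). The rank score was 0.576 higher with GATA2 than in hi-77-/- empty cells and differed by -0.607 between 9aa-Ins and GATA2. The region Ikzf3 -5.3 kb (chr11:98550833-98551831), which overlaps the start of Zpbp2, had a peak in all 16 libraries. Its median rank was 21147.5 in hi-77-/- empty, 10611 in GATA2 and 20309.5 in 9aa-Ins cells (0.214 ± 0.051 with GATA2, adjusted p = 0.00485). The locus of Ikzf3 thus shares its moving regions with its neighbors, and a peak list does not assign them to a gene.

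Ikzf1, which encodes Ikaros (chr11:11685003-11772926, + strand), had 23 regions and an open promoter in all libraries. The promoter region (chr11:11684646-11686471) had median ranks of 8307.5, 8718, 8417 and 7152.5 in hi-77+/+ empty, hi-77-/- empty, GATA2 and 9aa-Ins cells, with no difference past the test. Ikzf1 -60.6 kb (chr11:11624129-11624695) ranked 27423, 38748, 45408 and 30987 in hi-77-/- empty libraries, 5862, 9944, 5444 and 8132 with GATA2, and 30163, 35674, 27987 and 29143 with 9aa-Ins. The GATA2 libraries were ahead of all others. By limma the rank score rose by 0.577 ± 0.074 with GATA2 (adjusted p = 1.44e-05) and differed by -0.477 between 9aa-Ins and GATA2 (adjusted p = 0.000103). It lies in 4930512M02Rik, which also has the nearest start.

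Closer to the Ikzf1 start, regions moved in both directions with GATA2. Ikzf1 -5.7 kb (chr11:11679018-11679556, intergenic) was called opened with GATA2, at ranks 35748, 37707, 22558 and 38012 (a rank score difference of 0.316). The complete lists held a peak there in 2 of 4 hi-77-/- empty and all 4 hi-77+/+ empty libraries. Ikzf1 +26.9 kb (chr11:11711682-11712115, intron) rose with GATA2 from a median rank of 23165 to 10240.5 (0.278 ± 0.064, adjusted p = 0.00366). Ikzf1 +4.1 kb (chr11:11688918-11689375, intron) had a peak in all 4 libraries of every group but GATA2, where 1 library had one at rank 40674, and its rank score changed by -0.4002 ± 0.083 (adjusted p = 0.00158). Ikzf1 +45.4 kb (chr11:11729852-11730907, intron) rose with the deletion from a median rank of 13019.5 to 7521.5 (0.113 ± 0.020, adjusted p = 0.000231) and with 9aa-Ins to 2388 (0.0933 ± 0.020, adjusted p = 0.00588). The second of these changed sign when peaks of 1 kb or wider were left out (-0.160). The locus score was 6.19 ± 0.426 (SD, n = 4) in hi-77+/+ empty, 6.85 ± 0.750 in hi-77-/- empty, 7.61 ± 0.341 in GATA2 and 6.44 ± 0.183 in 9aa-Ins cells. Its difference of -1.17 between 9aa-Ins and GATA2 passed limma (adjusted p = 0.0102) and was lost under 5 of 18 alternatives.

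Bach2, which encodes a repressor (chr4:32238804-32586108, + strand), had weak peaks at its promoter. The region at -0.2 kb (chr4:32238354-32238868) had a peak in 3, 3, 3 and 4 libraries of hi-77+/+ empty, hi-77-/- empty, GATA2 and 9aa-Ins cells, at median ranks from 29953 to 40974. All of its 16 regions overlapped the gene, and 2 of them were opened with a viral protein. Bach2 +149.3 kb (chr4:32387961-32388214, intron), printed above, was opened with GATA2, at ranks 29854, 25518, 38621 and 29057, with no peak in the other 12 libraries. It was also called closed in 9aa-Ins against GATA2 cells. In the complete lists, 3 of 4 9aa-Ins libraries and none of the 8 empty vector libraries had a peak there. Bach2 +331.4 kb (chr4:32569962-32570384, intron) was opened with 9aa-Ins, at ranks 21527, 21521, 31066 and 20767, and had a peak in 2 GATA2 libraries, at ranks 28209 and 47632, and in 1 hi-77-/- empty library of the complete lists. The rank score was 0.516 higher with 9aa-Ins than in hi-77-/- empty cells and 0.403 higher than with GATA2. Locus scores of Bach2 ranged from 1.49 to 3.02, and none of its 4 comparisons passed limma.

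Foxo1, which encodes a forkhead factor upstream of Ebf1 (chr3:52268336-52353221, + strand), had several of its differences in an intergenic cluster between -91.9 and -79.0 kb. Foxo1 -91.9 kb (chr3:52176132-52176684) was opened with the deletion, at ranks 12147, 13472, 18758 and 15896. It ranked 29688, 23155 and 24235 in 3 GATA2 libraries, had no peak in the fourth, and ranked 20514, 16050, 13408 and 14050 with 9aa-Ins. By limma the rank score rose by 0.693 ± 0.092 with the deletion (adjusted p = 1.39e-05), fell by 0.336 ± 0.092 with GATA2 (adjusted p = 0.0132) and was 0.317 higher with 9aa-Ins than with GATA2 (adjusted p = 0.0168). The complete lists held a peak there in 3 of 4 hi-77+/+ empty libraries, and the nearest start was that of Maml3. Foxo1 -79.0 kb (chr3:52189020-52189671) had median ranks of 19940.5, 7311, 20400.5 and 9648 in hi-77+/+ empty, hi-77-/- empty, GATA2 and 9aa-Ins cells. It rose with the deletion (0.218, adjusted p = 0.0122), fell with GATA2 (-0.274, adjusted p = 0.0046) and was higher with 9aa-Ins than with GATA2 (0.236, adjusted p = 0.0116). The cluster was not uniform. Foxo1 -88.5 kb fell with GATA2 (-0.270, limma adjusted p = 0.00327) without a difference with the deletion (0.0299, adjusted p = 0.753). Foxo1 -87.2 kb rose with the deletion (0.343, adjusted p = 0.00113), and its fall with GATA2 did not pass (-0.176, adjusted p = 0.103).

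Other Foxo1 regions went another way. Foxo1 -70.1 kb (chr3:52197913-52198649) fell with the deletion from ranks of 6209, 7389, 6495 and 3768 to 26344, 27531, 20095 and 18461 (-0.350 ± 0.050, adjusted p = 2.89e-05), with no overlap between the groups. Foxo1 +75.2 kb (chr3:52343289-52343804, intron) had a peak in the 4 9aa-Ins libraries alone, at ranks of 40422 or weaker. It was called opened against both hi-77-/- empty and GATA2 cells, and the complete lists held a peak there in 2 of 4 hi-77-/- empty libraries. The promoter region (chr3:52267861-52269498) was open in all 16 libraries, at median ranks of 16997, 18816.5, 14910 and 16955.5. The locus score was 5.70 ± 0.445 (SD, n = 4), 5.81 ± 0.499, 4.75 ± 0.586 and 5.84 ± 0.376 in hi-77+/+ empty, hi-77-/- empty, GATA2 and 9aa-Ins cells. It fell by 1.07 with GATA2 (adjusted p = 0.0192) and was 1.09 higher with 9aa-Ins than with GATA2 (adjusted p = 0.0153). The first was lost under 7 of 18 alternatives, among them leaving out hi-77-/- empty replicate 1 (adjusted p = 0.0706) or GATA2 replicate 1 (0.0695). The second was lost under 4, among them leaving out GATA2 replicate 1 (0.0598) or 9aa-Ins replicate 2 (0.0596). With 50 kb on either side of the 5′ end, the differences shrank to -0.184 (adjusted p = 0.553) and 0.354 (adjusted p = 0.192).

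Tcf3, which encodes an E protein (chr10:80409514-80433647, - strand), had the most regions, 30, in a gene-dense part of the chromosome, and 6 of them were closest to its own start. Its promoter (chr10:80432905-80434537) had median ranks of 3075, 1846.5, 1915 and 988 in hi-77+/+ empty, hi-77-/- empty, GATA2 and 9aa-Ins cells, with no difference past the test. Tcf3 -9.6 kb (chr10:80443034-80443368, intergenic) was opened with the deletion, at ranks 19773, 24161, 22385 and 24921. It had a peak in 2 GATA2 libraries, at ranks 40552 and 30181, and ranked 38964, 48114, 40280 and 33037 with 9aa-Ins. The rank score rose by 0.535 ± 0.081 with the deletion (adjusted p = 5.27e-05), fell by 0.395 ± 0.081 with GATA2 (adjusted p = 0.00144) and fell by 0.353 ± 0.081 with 9aa-Ins (adjusted p = 0.00984). The last call was lost without 9aa-Ins replicate 2 (adjusted p = 0.0501) and with all deposited peaks (-0.109, adjusted p = 0.624). The complete lists held a peak there in 2 of 4 hi-77+/+ empty and 3 of 4 GATA2 libraries. At the far side, Tcf3 +83.3 kb (chr10:80350023-80350636), next to Adamtsl5, fell with the deletion from a median rank of 3883 to 14982 (-0.228 ± 0.038, adjusted p = 0.000123). Locus scores ranged from 8.27 to 10.9 and no comparison passed limma.

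A single promoter region was thus open in all 16 libraries at Ebf1, Tcf3, Foxo1 and Ikzf1, and at an internal start of Pax5. Bach2 had a peak within 1 kb of its start at position 32238950 in all 16, spread over 3 regions open in 13, 8 and 5 libraries. Ikzf3 had none. Of the 11 regions within 1 kb of a start of their own gene, the Pax5 +5.2 kb and +6.0 kb regions passed the test, with the deletion, and the other 9 passed in none of the 4 comparisons. The order of median promoter ranks in hi-77-/- empty cells was Tcf3, Pax5 +6.0 kb, Ebf1, Ikzf1, Foxo1 and Bach2. The ranks of Tcf3, Pax5 and Ebf1 overlapped between libraries, as all lay between 1259 and 4821.

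A list of 30 further genes of the B lineage, chosen with earlier results of these data known, was described beside the 7. Neighboring genes share regions, so the list covers 27 separate loci. Rag1 and Rag2, the recombinase genes, have 16 regions in common. Dntt, the terminal transferase, and Blnk, an adaptor of B cell receptor signaling, share 19 of their 20 regions each, and Igll1 and Vpreb1 share all 10. The values of each pair are therefore nearly 1 measurement.

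Locus scores rose with the deletion at 15 of the 30 genes, at 13 loci (20.1% of all genes rose), and fell at 2 (33.9% fell). The median difference was 0.614 against -0.156 over all genes tested. Among those that rose were Rag1 (1.43, adjusted p = 2.47e-05) with Rag2 (1.36) and, at the shared locus of Dntt and Blnk, both genes (1.81, adjusted p = 7.3e-05, and 1.87). Erg (3.88), Id2 (2.54) and Syk (1.61), whose roles are not confined to the B lineage, also rose. The 2 that fell were Pou2f2 (-2.36, limma adjusted p = 0.000292) and Bcl11a (-0.889, adjusted p = 0.00735). Another 13 genes did not pass, among them Cd79a (0.025), Igll1 (0.386), Vpreb3 (0.341) and Irf8 (-0.299). With GATA2, 2 rose (12.7% of all genes) and 10 fell, at 8 loci (14.4%), with a median of -0.395 against 0.0147. Among the latter were the locus of Dntt (-2.86, adjusted p = 2.79e-06) and Blnk (-2.88), and Irf8, a factor of myeloid and B cell development (-3.27, adjusted p = 3.32e-06). The 2 that rose with GATA2 were Vpreb2 (1.46, limma adjusted p = 0.00229) and Id3 (1.21, adjusted p = 0.0419). With 9aa-Ins, 2 rose (6.33%) and 4 fell (1.38%), with a median of -0.0196 against 0.0461. The 4 stood for 2 loci, that of Rag1 and Rag2 and that of Dntt and Blnk. Between 9aa-Ins and GATA2, 12 were higher with 9aa-Ins, at 11 loci (18.8%), and 4 lower, at 3 loci (10.1%), with a median of 0.591 against 0.0368. Irf8 was 3.12 higher (adjusted p = 5.63e-06), whereas Rag1 differed by -0.857 (adjusted p = 0.00594).

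The genes whose locus scores followed the 7 most closely over the 16 libraries were sought among 15560 genes and are given as a description, since the libraries share groups. For Pax5 these were 9130230L23Rik (Pearson r = 0.978), Cbx2 (0.973) and Cbx8 (0.969), the last pair being neighbors. For Ikzf3 they were Cfap126 (r = 0.961), Slc16a10 (0.959) and Rpl3 (0.943), and for Ebf1 they were Alox5 (0.930), Auh (0.911) and Dapk2 (0.910). The closest genes of Tcf3, Foxo1, Bach2 and Ikzf1 reached r of 0.811 to 0.849.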

How the data were processed

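ATAC-Seq peaks of 16 libraries (4 groups of 4) were used as deposited. Per the study's methods and the submitters' processing notes, the authors trimmed reads (Trim Galore 0.4.1), aligned them to mm10 (Bowtie2 2.2.5), removed duplicates (Picard 2.26.0) and called peaks per library with MACS2. The deposited columns used were the fold enrichment (a ratio), the −log10 p and the summit offset. No read counts or coverage entered this work, so depth is unknown, the study's count test could not be run, and within-library ranks replaced it.

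The 49000 peaks with the highest −log10 p on chromosomes 1 to 19 and X were taken per library, and peaks overlapping by at least 1 bp were merged. Genes came from GENCODE M21. Region rank scores and locus scores were fitted with limma 3.58.1 (R 4.3.3; trend, 4 groups, 12 residual degrees of freedom), tested on simulated data, with Benjamini-Hochberg adjustment over all regions or genes tested. A group without peaks has a score of 0 with no spread, so its error is borrowed from the other groups. Two-sided exact permutation tests of single locus scores cannot go below p = 0.0286. Python 3.11.15 was used for the rest.

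All 7 genes were named. Candidate regions were those at each 5′ end, up to 3 opened or closed regions per gene and comparison by median rank, and up to 2 more by smallest adjusted p. Not all candidates are described, and no fixed rule set which were. Ebf1 -97.1, -5.9 and +391.0 kb were described in addition to them. The 7 printed windows were picked from the candidates after their values were seen. Likeness was Pearson's r of locus scores with genes on other chromosomes that had at least 3 regions per library on average. The members and lists were chosen with earlier results of these data known. Alternatives were 24500 or all of the peaks, a 1 kb width limit, ordering by fold, 50% coverage, a 50 kb window, no filter, no trend, region counts, a replicate block and leaving out each library.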

Additional observations from a re-analysis of the deposited data

Results flagged for a closer look

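Among 56 sets of 4 libraries (locus score and number of regions with a peak, for 7 genes and 4 groups), 10 held 1 library far from the other 3 relative to their range. Chance flags about 1 in 20 such sets, and whole-number counts are flagged whenever 3 libraries tie. For the locus score, Pax5 in 9aa-Ins replicate 4 was 3.64 against 3.14 to 3.22 in the others, and Ikzf3 in GATA2 replicate 2 was 5.01 against 5.61 to 5.71. The Ikzf3 value was still above all 12 libraries of the other groups.

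The other 8 were counts of regions. Foxo1 had 15 regions in hi-77-/- empty replicate 1 against 12 in each of the others. Tcf3 had 19 in hi-77-/- empty replicate 1 against 18, and 19 in 9aa-Ins replicate 1 against 17. Ebf1 had 15 in hi-77-/- empty replicate 2 against 16, and 17 in 9aa-Ins replicate 1 against 18. Pax5 had 7 in 9aa-Ins replicate 4 against 6. Ikzf1 had 15 in GATA2 replicate 3 against 14, and Ikzf3 had 10 in GATA2 replicate 4 against 11.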

How the results depend on the processing

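The rise of the Pax5 locus score with the deletion held under all 18 alternatives, and those of Ikzf3 with GATA2 and against 9aa-Ins, and the fall of Pax5 with GATA2, under 17, with all deposited peaks as the exception. The other locus calls depended on the settings, and the cause was not tested. Of 28 gene-by-comparison locus tests 11 passed, against 18 with 24500 peaks per library, 5 with only peaks narrower than 1 kb, 7 when a peak had to cover 50% of the region, 5 with region numbers in place of scores, and 8 to 11 with 1 library left out. Direction changed with all deposited peaks for Ebf1 (deletion -1.36, GATA2 -0.527), Pax5 (9aa-Ins 0.29) and Ikzf1 (9aa-Ins against GATA2 1.44), with region numbers for Ebf1 (GATA2 -0.25), and with 50% coverage for Pax5 (9aa-Ins 0.234). Tests that missed the threshold passed under other settings 21 times, some in opposite directions. Tcf3 with the deletion passed at 24500 peaks (-1.46, adjusted p = 8.98e-05) and at 50 kb (0.997, adjusted p = 0.0381). Ebf1 between 9aa-Ins and GATA2 passed at 24500 peaks (-0.818), with all deposited peaks (5.00) and with region numbers (2.25). Tcf3 between 9aa-Ins and GATA2 passed at 24500 peaks (-1.02) and with all deposited peaks (4.35), and Bach2 with the deletion at 24500 peaks (0.195) and without hi-77+/+ empty replicate 2 (-0.647). Among region rank scores, those of Tcf3 +83.3 kb (0.497) and Tcf3 +85.1 kb (0.0537) between 9aa-Ins and GATA2 changed sign with 50% coverage, and that of Ikzf1 +45.4 kb with 9aa-Ins did with narrower peaks (-0.16).

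Counts of regions opened or closed and of regions passing limma also moved. With 24500 peaks per library, opened or closed regions went from 6 to 3 with GATA2, from 3 to 1 with 9aa-Ins and from 7 to 4 between 9aa-Ins and GATA2, and regions passing limma went from 33 to 21 with the deletion, 26 to 15, 5 to 2 and 30 to 16. With all deposited peaks, 8 regions rather than 5 opened or closed with the deletion and 16 rather than 5 passed limma with 9aa-Ins. With 50% coverage, 17 passed with the deletion, 15 with GATA2, and 5 opened or closed with 9aa-Ins. With 50 kb on either side, 19 passed between 9aa-Ins and GATA2, since fewer regions were counted. Leaving out 1 library gave 26 to 32, 19 to 27, 3 to 7 and 23 to 30 regions passing limma in the 4 comparisons, with the lowest for 9aa-Ins, 3, without 9aa-Ins replicate 2. Ordering by fold changed nothing, for a reason that was not tested.

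Libraries with the same number deviated together little (correlations from -0.0329 to 0.0912, with 0 of 4 pairs over 0.1 in each comparison). In the 4 comparisons, 1, 1, 2 and 5 of 8 libraries were closest to their own number. Between 9aa-Ins and GATA2 all correlations were positive, from 0.0174 to 0.0912. The numbers were not taken as pairs. With a replicate block, 33, 26, 5 and 29 regions passed limma, and of the locus calls that of Ebf1 with GATA2 was lost (0.847, adjusted p = 0.0627).

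Peak lists give no read counts, and a peak below the 49000 taken counts as absent, so presence calls are a matter of rank rather than of signal.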
